A study of Arabidopsis thaliana with 16 samples.

Results

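XTH26, EXPA7 and EXPA18 encode wall-modifying proteins of root hairs. The members were chosen by symbol, as the probe sets paired with only 1 gene that carry one of these symbols. Each gene had 1 such probe set: 253763_at for XTH26 (AT4G28850), 259525_at for EXPA7 (AT1G12560) and 261099_at for EXPA18 (AT1G62980). They are 3 of 13350 genes named in this way, and 3 of the 22746 probe sets tested. They were chosen with earlier results of these data known, so the shares over all probe sets given below are for scale and not a test. All 3 had lower intensities after hypoxia in both plant lines, and none differed between the lines beyond the test threshold.

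A root hair is a tubular outgrowth of a single epidermal cell that grows at its tip and enlarges the surface for uptake of water and nutrients. Its wall must be loosened and rebuilt while it extends. Expansins such as EXPA7 and EXPA18 loosen contacts between wall polymers without cutting them, and both genes are known for their expression in root hair cells. XTH26 belongs to the xyloglucan endotransglucosylase/hydrolases, which cut and rejoin the xyloglucan chains that tether cellulose. The measured tissue was the whole root, so fewer hair cells and less RNA per hair cell cannot be told apart.

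Roots of 14-d-old Arabidopsis thaliana seedlings of the Columbia ecotype were hybridised to 16 one-colour Affymetrix arrays. The design crossed 2 lines, wild type and HRE1-RNAi, with normoxia and hypoxia, giving 4 groups of 4 arrays. Hypoxia was 6 h in medium supplied with 3% oxygen in the dark. The normoxia samples are annotated with the same 6 h and no oxygen percentage, and whether they were kept in the dark is not stated here. The titles name the knock-down line HRE1-RNAi20, in which RNA interference targets HRE1 (AtERF73), an ethylene response factor gene, while most descriptions of its samples carry other line numbers, and the promoter driving the construct is not given in the sources used here. Replicates are biological by their titles, with no word on separate cultures, so p-values measure the spread between these samples, and no probe set was paired with HRE1, so its own level was not analysed here.

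XTH26 had intensities of 278.8, 262.0, 188.7 and 207.9 on the wild type normoxia arrays 1 to 4. After hypoxia the wild type arrays read 8.1, 60.5, 5.4 and 39.7. The groups did not overlap, and hypoxia arrays 1 and 3 lay below the pseudocount of 16 that was added before taking log2. In HRE1-RNAi the normoxia arrays read 208.2, 294.8, 326.7 and 212.2. The HRE1-RNAi hypoxia arrays read 34.4, 51.1, 78.1 and 64.3. Again every hypoxia array was below every normoxia array of the same line. The mean fell from 234 ± 42.9 to 28.4 ± 26.5 (SD, n = 4) in wild type, 12.1% of the normoxia level, and from 260.5 ± 59.5 to 57.0 ± 18.7 in HRE1-RNAi, 21.9% of it.

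EXPA7 had intensities of 558.7, 459.8, 442.8 and 389.8 on the wild type normoxia arrays. The wild type hypoxia arrays read 116.9, 196.9, 144.2 and 202.4. Every hypoxia array was below every normoxia array. On the HRE1-RNAi normoxia arrays EXPA7 read 542.9, 553.8, 729.4 and 589.0. Its HRE1-RNAi hypoxia values were 79.4, 171.2, 248.5 and 225.7. Array 1 was the lowest of all 16 for this gene, and the groups again did not overlap. The mean went from 463 ± 70.6 to 165 ± 41.5 (SD, n = 4) in wild type, 35.7% of normoxia, and from 604 ± 86.0 to 181 ± 75.2 in HRE1-RNAi, 30.01% of it.

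EXPA18 had intensities of 849.2, 829.9, 661.8 and 550.1 on the wild type normoxia arrays. After hypoxia the wild type arrays read 226.4, 312.9, 221.8 and 332.6, all below the normoxia range. The HRE1-RNAi normoxia arrays were close together, at 816.1, 847.6, 810.2 and 795.6. The HRE1-RNAi hypoxia arrays were spread widely, at 248.9, 560.9, 665.9 and 415.2. They lay below all HRE1-RNAi normoxia arrays, but arrays 2 and 3 were within the range of wild type normoxia. The mean went from 723 ± 143 to 273 ± 57.6 (SD, n = 4) in wild type, 37.8% of normoxia, and from 817 ± 21.9 to 473 ± 181 in HRE1-RNAi, 57.8% of it.

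**Figure D1:**
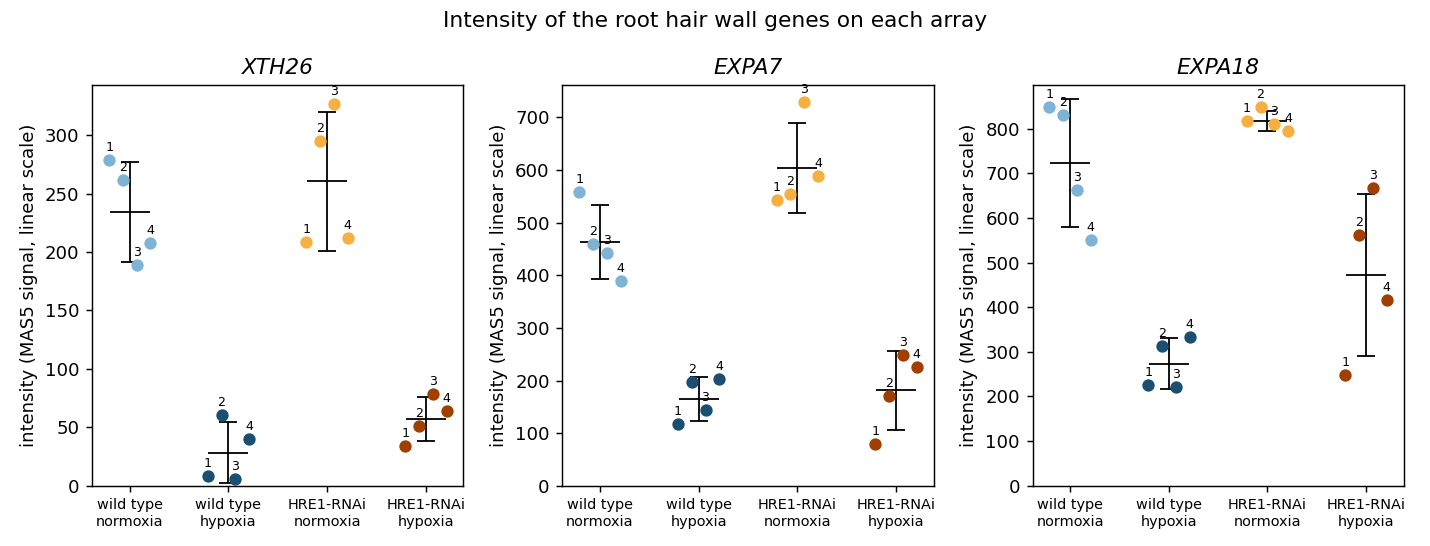
Intensity of XTH26, EXPA7 and EXPA18 (linear MAS5 signal, vertical axis from 0) in the 4 groups; each point is 1 array with its number, and the horizontal marks and bars are the mean ± SD of 4 arrays. In each line all hypoxia arrays lie below all normoxia arrays for all 3 genes, and EXPA18 is most spread out in HRE1-RNAi hypoxia (248.9 to 665.9).

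The comparison of hypoxia with normoxia asks how root transcripts differ after the hypoxia treatment, and it was made within each line with limma over all probe sets. Hypoxia was given in the dark. If the normoxia samples were kept in light, which is not stated, low oxygen and darkness cannot be told apart in it. In wild type XTH26 fell by 2.68 ± 0.32 on the log2 scale (SE, adjusted p = 1.5e-06, n = 4 per group). EXPA7 fell by 1.42 ± 0.24 (adjusted p = 0.00013) and EXPA18 fell by 1.35 ± 0.22 (adjusted p = 7.3e-05). All 3 members were thus called lower, where 10.6% of all probe sets were called lower. Over all probe sets 1637 were called higher and 2403 lower, but 2054 higher and 1755 lower with each array centred on its median, under which the 3 members were still called lower (-2.60, -1.33 and -1.26). All 4 hypoxia arrays lay below all 4 normoxia arrays for all 3 members, which was so for 13% of all probe sets. The size for XTH26 depends on the pseudocount because its hypoxia values are dim: the change was -3.57 with a pseudocount of 1 and -1.72 with 64, called in both cases.

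The same comparison in HRE1-RNAi called all 3 members lower as well, where 10.7% of all probe sets were called lower. Over all probe sets 1708 were called higher and 2427 lower, and 2134 higher and 1702 lower with arrays centred on their median, where the members changed by -1.82, -1.63 and -0.75 and kept their calls. XTH26 fell by 1.93 ± 0.32 (adjusted p = 0.000101), EXPA7 fell by 1.74 ± 0.24 (adjusted p = 8.9e-06) and EXPA18 fell by 0.86 ± 0.22 (adjusted p = 0.00685). The groups did not overlap for any of the 3, as for 11.5% of all probe sets in this direction. EXPA18 thus had the smallest of these changes in HRE1-RNAi, and XTH26 had the largest in both lines on this scale.

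**Figure D2:**
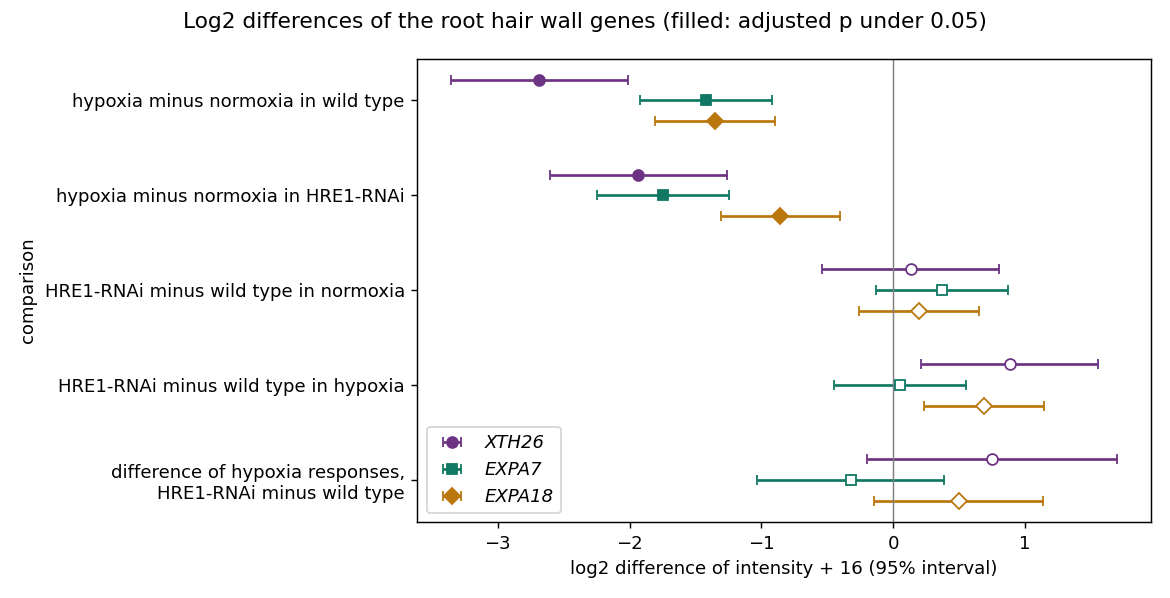
Log2 differences of intensity + 16 (horizontal axis) with 95% intervals for XTH26, EXPA7 and EXPA18 in the 5 comparisons; filled symbols have an adjusted p under 0.05. The 6 hypoxia responses lie between -2.68 and -0.86 and are all filled, and the other 9 symbols are open.

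HRE1-RNAi was compared with wild type to ask whether the line alters these transcripts. In normoxia 0 of the 3 members were called by limma, where 6 probe sets of 22746 (0.0264%) were called, and no member had an unadjusted p below 0.05. XTH26 differed by 0.13 (95% interval -0.54 to 0.81), EXPA7 by 0.37 (-0.13 to 0.87) and EXPA18 by 0.19 (-0.26 to 0.65). All intervals included 0 and stayed within a 2-fold change. The arrays of both lines overlapped for all 3 genes, whereas 1.96% of all probe sets lay wholly below and 1.08% wholly above wild type.

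In hypoxia 0 of the 3 members were called either, where 5 probe sets (0.022%) were called. EXPA18 was 0.69 ± 0.22 higher in HRE1-RNAi (95% interval 0.24 to 1.15), with an unadjusted p of 0.00458 and an adjusted p of 0.941. XTH26 was 0.88 ± 0.32 higher (0.21 to 1.56), with an unadjusted p of 0.0122 and an adjusted p of 1.00. EXPA7 differed by 0.05 ± 0.24 (-0.45 to 0.55, adjusted p = 1.00). The value for XTH26 was 1.51 with a pseudocount of 1 and 0.42 with 64. The arrays of both lines overlapped for all 3 genes, whereas 1.31% of all probe sets lay wholly below and 1.26% wholly above wild type, and 1036 probe sets had an unadjusted p below 0.05 in this comparison.

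The difference of the hypoxia responses, HRE1-RNAi minus wild type, tests directly whether the lines respond alike. It was 0.75 ± 0.46 for XTH26 (95% interval -0.20 to 1.70), -0.32 ± 0.34 for EXPA7 (-1.03 to 0.38) and 0.50 ± 0.31 for EXPA18 (-0.15 to 1.14). None was called by limma (adjusted p = 1.00 for each, unadjusted p from 0.115 to 0.354), where 4 probe sets (0.0176%) were called. With single arrays left out these differences ranged from 0.47 to 1.08, from -0.50 to -0.0072 and from 0.31 to 0.76, and for XTH26 the pseudocounts gave 1.37 (with 1) and 0.30 (with 64). The intervals for XTH26 and EXPA18 still allow a response that is more than 2-fold smaller in HRE1-RNAi.

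All 3 genes had the same order of group means, from HRE1-RNAi normoxia through wild type normoxia and HRE1-RNAi hypoxia to wild type hypoxia. Neither the 2 normoxia groups nor the 2 hypoxia groups differed beyond the test threshold. Between wild type normoxia and HRE1-RNAi hypoxia XTH26 and EXPA7 did not overlap, with lowest wild type normoxia values of 188.7 and 389.8 against highest HRE1-RNAi hypoxia values of 78.1 and 248.5. EXPA18 did overlap there, at 550.1 to 849.2 against 248.9 to 665.9. This pair of groups differs in both line and oxygen. The share of all probe sets without overlap was not counted for it, so the separation does not set these genes apart.

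Whether the 3 genes fell to the same extent was tested on the log2 gap between 2 members on the same array, which no scaling of arrays can alter before the pseudocount is added. In wild type the gap of XTH26 to EXPA7 went from -0.94 ± 0.17 to -2.20 ± 0.62 (SD, n = 4), a change of -1.26 (two-sided exact permutation p = 0.0286, the smallest that 4 against 4 arrays allow, adjusted p = 0.043 over 6 tests). Its gap to EXPA18 changed by -1.33 (exact permutation p = 0.0286, adjusted p = 0.043). EXPA7 and EXPA18 kept nearly the same gap, which changed by -0.07 (exact permutation p = 0.486). On this scale XTH26 thus fell more than both expansins in wild type, in tests added after the data were seen. The changes shrank to -0.51 and -0.50 with a pseudocount of 64 and then had adjusted p = 0.057. Without both HRE1-RNAi arrays numbered 4 the wild type changes were the same, but their adjusted p was 0.086.

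The same gaps were tested in HRE1-RNAi. The gap of EXPA7 to EXPA18 went from -0.44 ± 0.21 to -1.32 ± 0.34 (SD, n = 4), a change of -0.89 (exact permutation p = 0.0286, adjusted p = 0.043, and 0.057 with a pseudocount of 64). XTH26 changed against EXPA18 by -1.08 (exact permutation p = 0.0286, adjusted p = 0.043, and 0.086 with 64). Against EXPA7 it changed by -0.19 (exact permutation p = 0.343). In this line EXPA18 was the member that fell less than the others. Whether the split differs between the lines was not tested.

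Within a group the 3 genes tended to be high or low on the same arrays. On 12 of 16 arrays all 3 lay on the same side of their group means. XTH26 and EXPA7 did so on 14 arrays, and each of the other pairs on 13. Such counts were not made for other probe sets, so they do not set these genes apart from the rest. In wild type hypoxia all 3 genes were above their mean on arrays 2 and 4 and below it on arrays 1 and 3. The deviations of XTH26 there were -0.68, 0.99, -0.85 and 0.53 log2, those of EXPA7 -0.42, 0.26, -0.15 and 0.30, and those of EXPA18 -0.23, 0.21, -0.26 and 0.29. In HRE1-RNAi hypoxia array 1 was the lowest and array 3 the highest for all 3 genes. The mean 3' minus 5' signal of the actin, GAPDH and ubiquitin control probe sets, a measure of RNA integrity, was 1.09, 1.14, 1.01 and 1.14 log2 on the wild type hypoxia arrays 1 to 4. On the HRE1-RNAi hypoxia arrays it was 1.03, 0.96, 1.15 and 1.35, and its part in these deviations was not tested.

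**Figure D3:**
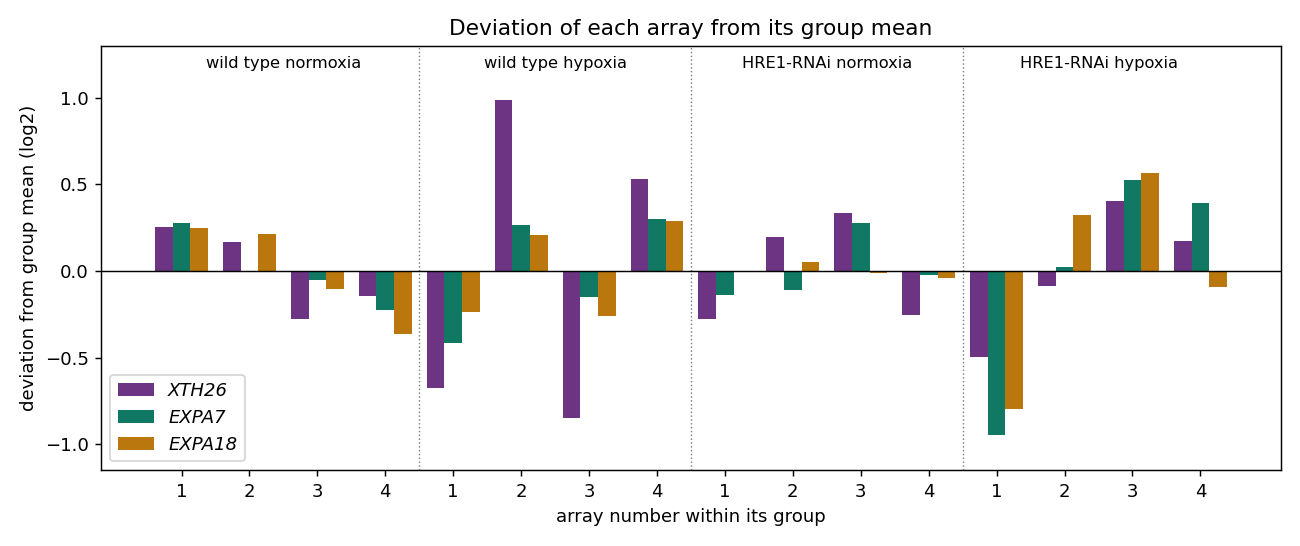
Deviation of XTH26, EXPA7 and EXPA18 from their group mean (vertical axis, log2 of intensity + 16) on each of the 16 arrays, numbered within the 4 groups. The bars of the 3 genes point the same way on 12 of 16 arrays, with the widest excursions in the hypoxia groups.

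A listed gene counted as measured if a probe set was paired with it alone. The list of genes of root hair growth held 66 genes, of which 8 were measured, the 3 members and 5 more. Of these 5, SCN1 was called lower in both lines and the other 4 were not called, beside 10.6% and 10.7% of all probe sets called lower. So few measured genes describe only themselves and not the list. SCN1, which restricts hair outgrowth to a single site on the cell by holding back ROP GTPases, fell by 0.60 ± 0.13 in wild type (adjusted p = 0.0019) and by 0.55 ± 0.13 in HRE1-RNAi (adjusted p = 0.0037). The second of these calls was lost with each array centred on its median (adjusted p = 0.0525). CSLD2, a cellulose synthase-like protein of tip growth, differed by -0.05 ± 0.15 in wild type and by 0.27 ± 0.15 in HRE1-RNAi. FER, a receptor-like kinase that also acts in hair growth, differed by -0.34 ± 0.20 and -0.09 ± 0.20. AT4G26010 differed by -0.01 ± 0.15 and 0.11 ± 0.15, with means of 1722 and 1706 in wild type normoxia and hypoxia. AT2G14760 was dim, with a group mean of at most 30.8. The median of the 5 was -0.05 in both lines, beside -0.06 over all probe sets in each line.

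Within the expansin family EXPA7 and EXPA18 were among the larger falls in wild type hypoxia. Of 37 expansin and expansin-like genes 19 were measured. In wild type 7 of these were called lower and 2 higher (10.6% and 7.2% of all probe sets), with a median of -0.41 beside -0.06 for all probe sets. Without the 2 members, 5 of 17 were called lower and 2 higher. Over the alternatives 6 to 10 of the 19 were called lower, with EXPA4, EXPA9 and EXPA20 added under array weights. The expansin-like gene EXLA2 changed by -1.62 ± 0.34, EXPA15 by -1.34 ± 0.22, EXLA1 by -1.07 ± 0.16 and the beta-expansin gene EXPB1 by -0.996 ± 0.22. EXLB1 changed by -0.67 ± 0.19, a call that was lost without wild type normoxia array 3 or wild type hypoxia array 4 (adjusted p = 0.070 and 0.053). These losses ran from -1.62 to -0.67, the range in which EXPA7 and EXPA18 lie.

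The 2 called rises were expansin-like genes. AT4G30380, for which the reference lists the synonym EXLB2, rose by 5.25 ± 0.33, from 5.98 in normoxia, below the pseudocount, to 902. EXLA3 rose by 1.48 ± 0.44, from 12.0 to 69.4, and lost its call without wild type normoxia arrays 2 or 4 or wild type hypoxia arrays 1 or 3 (adjusted p from 0.052 to 0.10). In HRE1-RNAi 8 of 19 were called lower and 1 higher (10.7% and 7.51% of all probe sets). The 7 genes lower in wild type were again lower, and EXPA9, named after its values were seen, was the additional one (-0.78 ± 0.23). EXPA9 lost this call without HRE1-RNAi normoxia arrays 2 or 3 or HRE1-RNAi hypoxia array 1 (adjusted p from 0.053 to 0.061 for normoxia array 3 and hypoxia array 1, and 0.067 for normoxia array 2). EXLB1 lost its call in this line without HRE1-RNAi normoxia arrays 1 or 2 or hypoxia arrays 2 or 3 (adjusted p from 0.065 to 0.12), with arrays centred on their median (0.061), with only the groups compared (0.059) and with plain moderation (0.064). EXPA9 also lost it with median centring (0.062) and plain moderation (0.053), and EXLA2 with a pseudocount of 1 (0.065). AT4G30380 rose by 3.44 ± 0.33 in HRE1-RNAi. No expansin was called between the lines or in the difference of responses. Closely related copies in these families may share signal on one probe set.

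Within the XTH family XTH26 moved against 2 relatives. Of 33 family members 10 were measured, and in wild type XTH26 was called lower while XTH18 and XTH20 were called higher, beside 10.6% of all probe sets lower and 7.2% higher. XTH18 rose by 1.27 ± 0.30, from 490.4 to 1220.4, and XTH20 rose by 0.90 ± 0.23, from 263 to 507. In HRE1-RNAi XTH18 rose by 1.47 ± 0.30 and XTH20 by 1.76 ± 0.23, and 2 genes were called lower, beside 7.51% of all probe sets higher and 10.7% lower. XTH33, named after its values were seen, was the one called lower there besides XTH26 (-0.84 ± 0.24), a call lost without HRE1-RNAi hypoxia arrays 1, 2 or 3 (adjusted p from 0.051 to 0.060). Without XTH26 the median of the other 9 was -0.30 in wild type and -0.21 in HRE1-RNAi. In wild type XTH19 (-0.67 ± 0.29) and XTH32 (-0.58 ± 0.23), also named after their values were seen, were not called (adjusted p = 0.13 and 0.085). XTH19 was called lower with a replicate block (adjusted p = 0.013), with only the groups compared (0.0043) and with array weights (0.037), and XTH32 with array weights (0.043). Both were called lower without the HRE1-RNAi arrays numbered 4, which raised the lower calls of the family from 1 to 3. Single arrays left out also added a call in wild type: XTH32 without HRE1-RNAi normoxia array 4, and XTH19 without HRE1-RNAi hypoxia array 2 or 4.

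**Figure D4:**
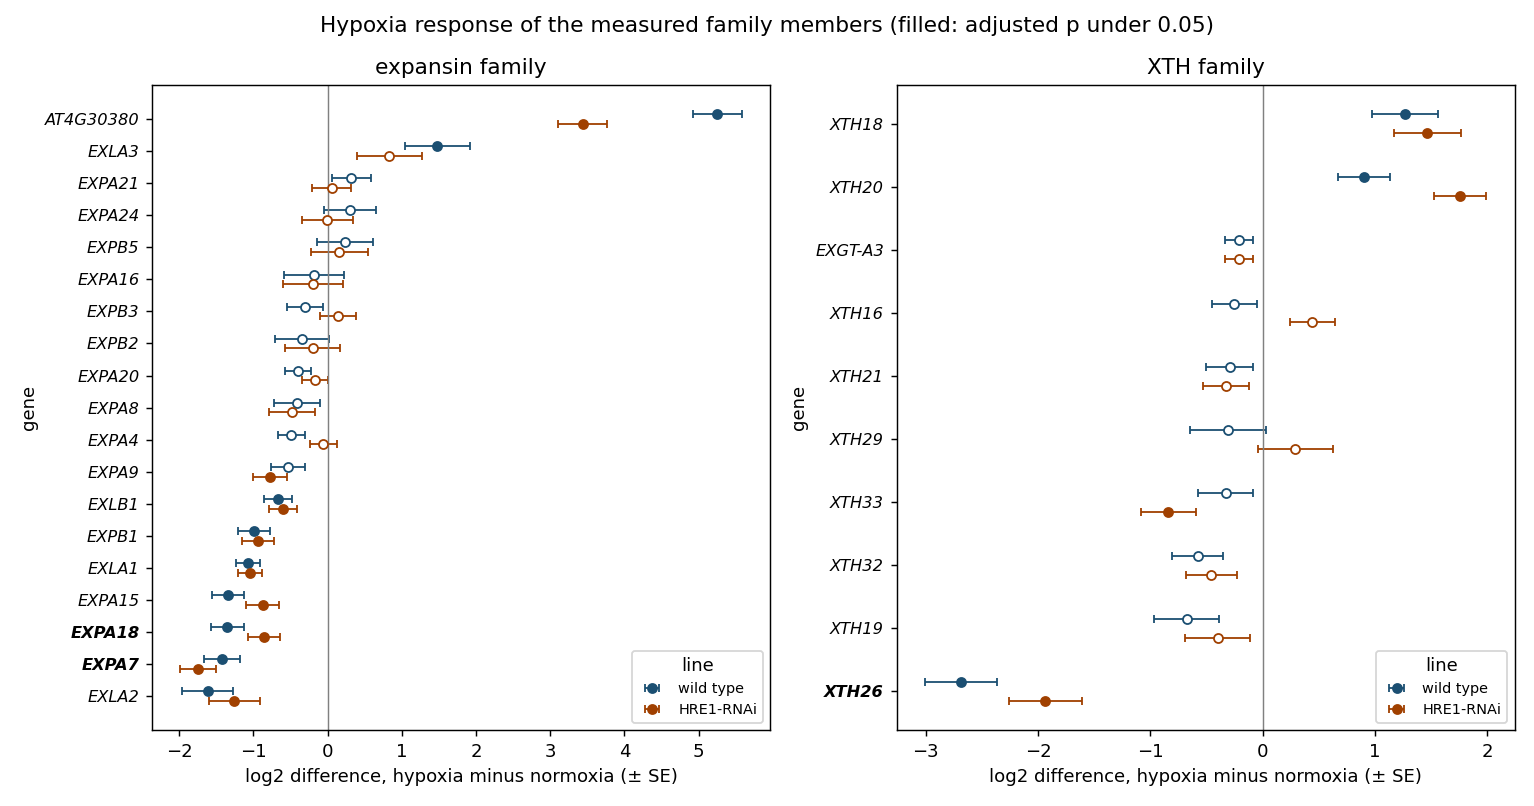
Log2 difference of hypoxia minus normoxia (horizontal axis, ± SE) for the 19 measured expansin genes and the 10 measured XTH genes, in wild type and HRE1-RNAi; filled points have an adjusted p under 0.05, and the 3 members are in bold. XTH26 lies at the low end of its family at -2.68 and -1.93, apart from XTH18 and XTH20 at 0.90 to 1.76.

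The genes with the most similar profiles were sought by the root mean square difference of log2 values over the 16 arrays. Each profile was centred on its own mean but not scaled, so the difference reflects the size of a change as well as its shape. Candidates were 7246 probe sets for XTH26 and 7245 for each expansin, those with 1 gene and a mean log2 value of at least 7. Nearest to XTH26 was AT4G33730 (difference 0.32), followed by AT3G49960 (0.44), AT5G47950 (0.47), AT1G34510 (0.47) and AT3G14067 (0.49). Nearest to EXPA7 was AT3G43670 (0.26), followed by the glutathione transferase gene GSTU28 (0.29), SP1L4 (0.32), AT5G59450 (0.32) and AT3G12540 (0.32). Nearest to EXPA18 was AT1G30870 (0.28), followed by HRGP1, which encodes a hydroxyproline-rich glycoprotein (0.28), the glycosyl hydrolase gene GH9C1 (0.30), UGT71C1 (0.31) and AT4G00700 (0.32). The probe set of HRGP1 is of a type that may bind similar sequences.

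All of these genes were called lower in wild type hypoxia, and in HRE1-RNAi all but AT1G30870 (adjusted p = 0.106), a property that the measure itself selects. AT4G33730 changed by -2.41 ± 0.27 in wild type and -2.01 ± 0.27 in HRE1-RNAi. AT3G43670 changed by -1.49 ± 0.14 and -1.75 ± 0.14, and AT1G30870 by -1.10 ± 0.29 and -0.71 ± 0.29. The members were not each other's nearest profiles. To rank the members, each was added to the candidates where it was not one, as for XTH26 with its mean of 6.86. Among the 7246 then ranked, EXPA18 was number 24 for EXPA7 at a difference of 0.39, and EXPA7 was number 56 for EXPA18. EXPA7 was number 26 for XTH26 (0.57), whereas XTH26 was number 376 for EXPA7 and number 3407 for EXPA18 (0.70). Unequal sizes of fall alone widen this difference, so the ranks do not compare the shape of the profiles alone.

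**Figure D5:**
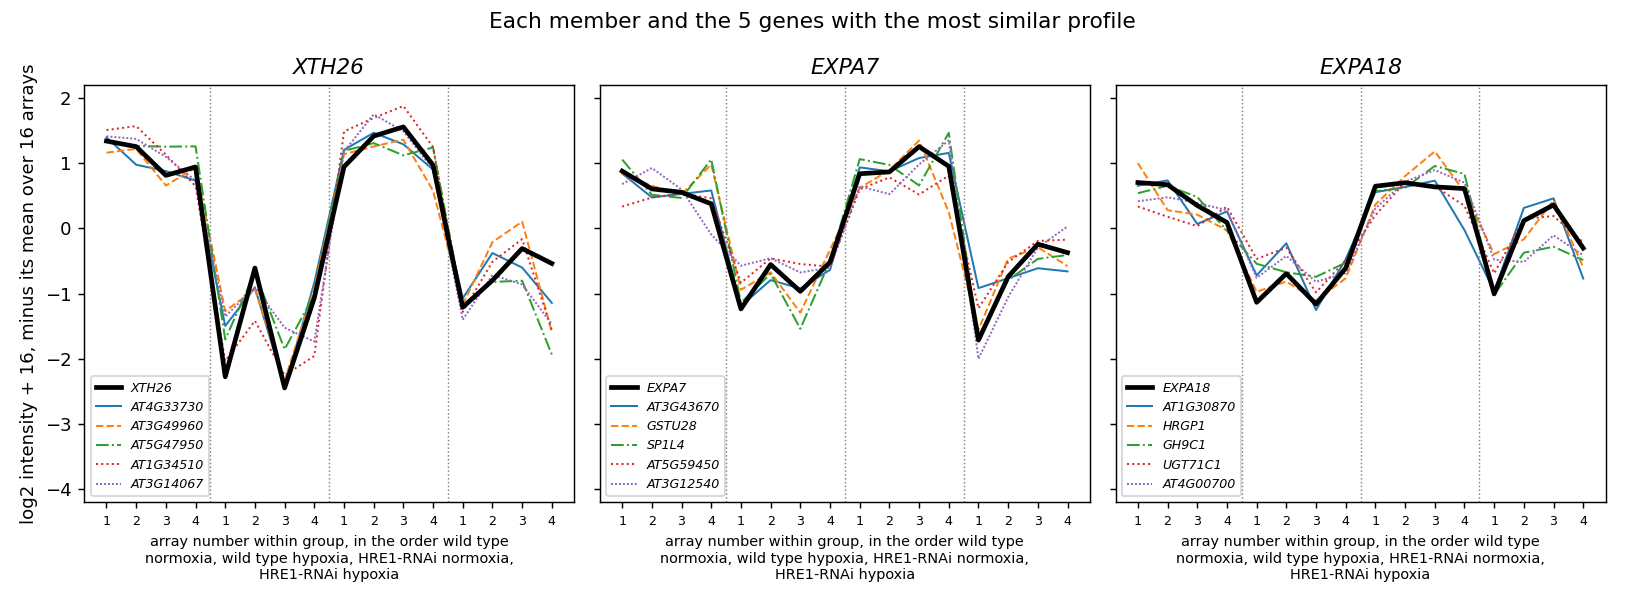
Log2 intensity + 16 minus its mean over 16 arrays (vertical axis) for each member (thick black) and its 5 most similar genes, over the arrays in group order. The drop in both hypoxia groups is shared in every panel, and XTH26 has its lowest values on wild type hypoxia arrays 1 and 3.

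Median intensities were lower on all hypoxia than on all normoxia arrays in wild type, at 168.85 to 178.05 against 179.9 to 193.6, and overlapped in HRE1-RNAi, at 166.3 to 191.1 against 179.95 to 206.5. The median correlation of an array with the others of its group was 0.962 to 0.976. The 2 HRE1-RNAi arrays numbered 4 stood apart: their deviations from their group means correlated at 0.42 across probe sets, and they had the highest 3' minus 5' signal, 1.32 and 1.35. Without them the changes in HRE1-RNAi hypoxia were -2.08 for XTH26, -1.88 for EXPA7 and -0.84 for EXPA18, all still called. PYK10, a beta-glucosidase gene abundant in roots, had intensities from 14815 to 26022. Of 11 listed shoot markers 2 were measured, and their summed intensity was 1718 to 1990 in wild type normoxia and 1021 to 1104 in wild type hypoxia. It was 1728 to 1911 in HRE1-RNAi normoxia and 984 to 1429 in HRE1-RNAi hypoxia, so it was lower in hypoxia too, and none of the arrays had it at 0. The change lay mostly in LHCB4.1, with means of 1541 and 771 in wild type normoxia and hypoxia, beside 326 and 294 for RCA. In HRE1-RNAi the means were 1512 and 829 for LHCB4.1, and 339 and 302 for RCA. Only 1 of these 2 genes was called lower in each line. The 2 measured of 2 listed cortex markers summed to 467 to 747 in wild type normoxia and 748 to 1103 in wild type hypoxia, and in HRE1-RNAi to 586 to 891 and 717 to 1456. Of these 2, AT1G62500 was called higher in both lines and AT1G09750 in neither. The call of AT1G62500 was lost under 2 alternatives in wild type and 8 in HRE1-RNAi. Listed markers of non-hair epidermis, endodermis, stele and root cap had 0 measured genes, that is, none with a probe set paired with it alone. This does not show that the arrays lack probe sets for them. The part of other cell types in the results above was not tested.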

How the data were processed

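Transcripts were measured in roots on 16 arrays. Each deposited value is a linear intensity of a probe set, computed by the authors with MAS5 per the submitters' processing notes, with no version given. They ran from 0 to 41828.2, and array means trimmed of 2% at either end were 500.04 to 500.05. Of 22810 probe sets 64 controls were left out. A single gene was assigned to 13513 probe sets by the supplied table, several to 503 and no gene to 8730, and 13436 of the first kind were matched by gene identifier to the RefSeq gene table (TAIR10.1), which gave the symbols.

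Values were taken to log2 after adding 16, so changes of dim genes are understated. Group means were fitted by limma 3.58.1 (R 4.3.3) over all 16 arrays (12 residual degrees of freedom, trended and robust moderation). P-values, two-sided, were adjusted by Benjamini-Hochberg within each comparison over 22746 probe sets, and calls are adjusted p under 0.05. Gaps between members were tested by exact permutation in SciPy 1.17.1, added after the data were seen. The fit was also run on simulated data with independent noise, changed only in brighter probe sets. That run does not cover dim genes such as XTH26 or deviations shared across probe sets, and its outcome is not given here. Precision is limited by how many arrays there are.

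The members and gene lists were chosen with earlier results of these data known. Text names the members, all measured root hair genes and all measured markers. It also names the 5 strongest called changes each way per family in wild type hypoxia, and the 5 most similar genes per member. A gene had its probe set of highest mean. Alternatives were pseudocounts of 1 and 64, quantile normalization, median centring, leaving out the dimmest 40% of probe sets, a replicate block, fixed or random, only the groups compared, plain moderation, array weights and leaving out arrays. Promoter and protein sequences were not used here.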

Additional observations from a re-analysis of the deposited data

Results flagged for a closer look

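In 136 groups of 4 arrays, from 34 genes of the root hair list and the 2 families, 6 had 1 array far from the other 3 by Dixon's criterion, where chance gives about 1 in 20, or 6.8. None of these was a group of XTH26, EXPA7 or EXPA18. EXPB2 read 15.1 on wild type normoxia array 4, against 59.4 to 73.3 on the others. EXPA15 read 314.3 on HRE1-RNAi normoxia array 4, against 614.8 to 657.2. EXPB1 read 152.2 on wild type hypoxia array 3, against 254.4 to 275.0. EXLA3 read 61.6 on HRE1-RNAi normoxia array 4, against 16.2 to 21.3. EXPA21 read 8.8 on wild type normoxia array 2, against 2.6 to 3.0, all of them dim. XTH33 read 133.6 on HRE1-RNAi hypoxia array 4, against 68.6 to 73.4. Of the 6 arrays, 3 were the HRE1-RNAi arrays numbered 4.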

How the results depend on the processing

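The 6 hypoxia responses of XTH26, EXPA7 and EXPA18 kept their direction and their call under every alternative run, including each array left out. XTH26, with a mean just under the limit, was removed with the dimmest 40%, so it has no value there, while EXPA7 and EXPA18 passed. The difference of EXPA7 between the lines in hypoxia, not called, changed sign to -0.0802 without both HRE1-RNAi arrays numbered 4 (range -0.12 to 0.37 with single arrays left out). With a replicate block, or with only the groups compared, 2 XTH genes were lower in wild type. There were 3 with array weights or without both arrays numbered 4, and 0 without the dimmest 40%, which removes XTH26. With single arrays left out the range was 1 to 2 there, and 1 to 3 in HRE1-RNAi, where 1 was lower without the dimmest 40%. The replicate block changed no call of a member and moved all calls from 1637 higher and 2403 lower to 1779 and 2598 in wild type, and from 1708 and 2427 to 1822 and 2654 in HRE1-RNAi. The titles give same-numbered arrays a number in common and nothing more, and whether they shared handling was not tested. Their deviations correlated over 0.1 in 6 of 24 pairs (-0.09 to 0.42). This held for 2 of 4 pairs between the wild type groups and 3 of 4 between the HRE1-RNAi groups. Of the 16 arrays, 7 correlated best with an array of their own number in another group. Higher expansin calls in wild type were 1 without the dimmest 40% and 1 to 2 with single arrays left out. With arrays centred on their median 0 of the 5 other root hair genes were lower in HRE1-RNAi. With a pseudocount of 64 the uncalled gap changes turned sign, to 0.0084 for EXPA7 to EXPA18 in wild type and 0.079 for XTH26 to EXPA7 in HRE1-RNAi. Without both arrays numbered 4 the called gaps in wild type kept their values and exact p of 0.0286, with an adjusted p of 0.086 over the 6 tests, and those in HRE1-RNAi were -1.24 and -1.05 (adjusted p = 0.15), where 3 against 3 arrays cannot go below an exact p of 0.1. The cause of the other shifts was not tested. The depth of an array is not defined, and values below the pseudocount of 16 limit the size given for XTH26.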
